A study of Mus musculus with 4 samples.

Results

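The matrix proteases and their inhibitors examined here are 47 named genes that code for enzymes which cut the extracellular matrix or cell surface proteins, for inhibitors of such enzymes and for 1 protease receptor. Members were taken as the probe sets that the array annotation assigns to 1 of these symbols alone, and each gene was represented by its probe set with the highest mean over the 4 arrays. Of the 47 genes, 44 had such a probe set among the 18193 genes measured in all, comprising 33 proteases, 10 inhibitors and 1 receptor; no own probe set was found for Mmp15, Adamts2 and Serpine2, which were not analysed here. A total of 39 of the 44 lay above the level filter of 5.15 (the lowest mean log2 level among the brightest 60% of probe sets) and were tested, among 13084 genes.

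RNA came from cultured mouse cells of 2 lines, with 2 Affymetrix arrays each. NSCL61-sox11 expresses the transcription factor Sox11 and, per the submitters' design text, no longer formed tumours after transplantation; NSCL61 is the line it was made from. Both are p53-/- and were derived from C57BL/6 neural stem cells of the embryonic day 14.5 brain, and the labels describe both as resembling glioma-initiating cells. The labels describe growth of telencephalic neuroepithelial cells as floating spheres in serum-free medium with insulin, forskolin, PDGF and bFGF, and name no promoter or construct for Sox11. NSCL61-sox11 stands for a single derived line. The labels do not tell whether same-line arrays hold RNA of separate cultures, and p-values then reflect only how far these arrays differ, possibly for technical reasons. An exact two-sided permutation test of 2 arrays against 2 cannot give a p below 0.333; the calls below rest on limma, fitted across 27022 probe sets, at a Benjamini-Hochberg adjusted p under 0.05. All levels and differences are on the log2 scale unless called a fold, and n = 2 for every mean ± SD.

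Matrix metalloproteases (MMPs) are zinc enzymes that are made as inactive precursors and cut collagens, laminins and other matrix proteins; some are secreted and others sit in the membrane. ADAM proteins are membrane-bound relatives that mainly shed cell surface proteins, and ADAMTS enzymes are secreted relatives that cut proteoglycans and process collagen precursors and microfibrils. TIMP proteins and the membrane-anchored protein RECK inhibit these metalloproteases, whereas serpins act on serine proteases such as the plasminogen activators. In glioma these systems are known for their part in invasion of brain tissue, whose matrix is rich in proteoglycans such as versican and brevican.

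Across the family, the inhibitors that changed all rose and the proteases changed in both directions. Of 10 members listed as inhibitors and tested, 4 rose in NSCL61-sox11, 0 fell and 6 did not pass. The 4 were Timp3, Reck, Timp2 and Serpinf1, the last a member by its serpin family whose product is not known to inhibit proteases. Of 28 members listed as proteases and tested, which include the protease-like receptor gene Adam22, 3 rose (Mmp16, Adam19 and Adamts10) and 5 fell (Adamts9, Adamts7, Adam8, Htra1 and Adam12), while 20 did not pass. Together 12 of 39 members were called, or 30.8%, against 19.2% of the 13084 genes tested. Of the 12, Reck alone had a mean under the level filter in NSCL61, and it passed the filter only through its level in NSCL61-sox11. A change of at least 2-fold was called in 7 members, 4 upwards and 3 downwards, against 4.48% of genes. For rises at any size this was 17.9% of members against 10.0% of genes, and for falls 12.8% against 9.19%. The median difference was 0.11 over the 10 inhibitors and 0.04 over the 28 proteases, beside -0.02 over all genes tested. With the arrays scaled to poly-A controls the medians of the inhibitors and proteases were both negative, at -0.24 and -0.32, beside -0.38 over all genes tested. In the fit of all probe sets, which includes the 5 members under the level filter, 8 of 44 rose and 5 fell, against 6.94% and 6.01% of genes (13.0% in either direction). The groups of proteases and inhibitors were not tested against each other.

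**Figure D1:**
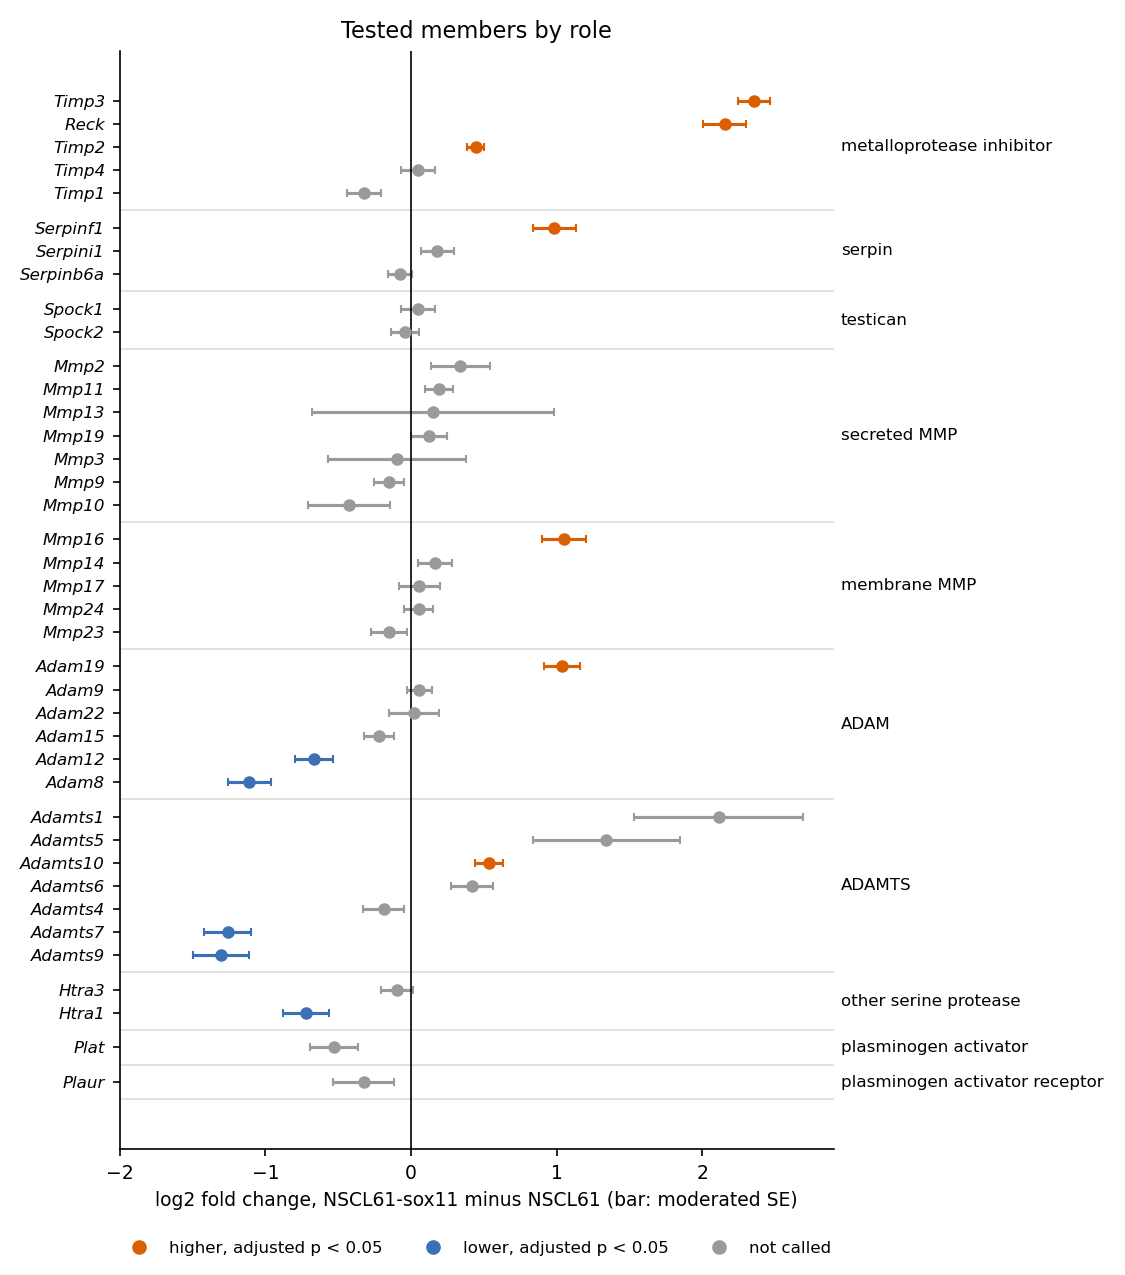
Log2 fold change (NSCL61-sox11 minus NSCL61, horizontal axis) of the 39 tested members, grouped by role, with the moderated SE as bars and colour for the call. The 4 called inhibitors lie right of 0, the 8 called proteases lie on both sides, and Adamts1, Adamts5, Mmp3 and Mmp13 have the widest bars.

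The arrays showed the difference between the lines that the labels give. Sox11 had levels of 7.74 and 7.97 in NSCL61-sox11, against 5.09 and 4.82 in NSCL61. Pearson's r across the 27022 probe sets, which are not independent, was 0.994 to 0.995 between arrays of a line and 0.968 to 0.972 between lines. Of 11 neural stem cell markers listed, 10 were measured and 8 passed the level filter, whereas Olig2 and Fabp7 lay below it; Slc1a3 rose by 1.19, Sox2 fell by 1.70, Pax6 by 0.45 and Vim by 0.21, and 4 did not pass, Nes among them. Of 9 neuron markers 6 were tested: the neurofilament gene Nefl fell, with levels of 4.32 and 4.91 in NSCL61-sox11, against 11.01 and 11.79 in NSCL61, while Tubb3 rose 2.82-fold and Syt1 1.53-fold. Of 9 endothelial markers 4 were tested and 0 were called by limma, 2 of them having an unadjusted p under 0.05; the brightest, Flt1, differed by 0.46. The part of these markers in the results was not tested. Of 12 markers of microglia and blood cells, in which Mmp9 and Mmp12 are known to be made, 7 lay below the level filter, including Ptprc, Aif1 and Cx3cr1, and the other 5, of which Cd14 is the brightest, were not called. Of 12 fibroblast and meningeal markers, 5 rose (Postn by 3.33, Col1a1 by 2.99, Pdgfrb by 2.33, Col1a2 by 1.10 and Foxc1 by 0.58), 3 did not pass and 4, including Lum and Aldh1a2, lay below the filter; of all genes tested, 10.0% rose. Their summed linear level was 3873 and 7367 in NSCL61-sox11, against 1721 and 2502 in NSCL61. The sum is carried by a few bright genes such as Col3a1, Pdgfrb and Postn. On NSCL61-sox11 array 2, 5 of the 12 markers were higher than on array 1 and 7 were lower. The 5 were Postn (2.32), Col1a1 (1.10), Col3a1 (1.06), Pdgfrb (0.76) and Foxc1 (0.32). The 7 were the 4 below the level filter, and Dcn (-0.69), Twist1 (-0.13) and Col1a2 (-0.07). The called markers of this list rose alongside the inhibitors below, and their part in the results was not tested. A lower share of cells of a type and less RNA per cell cannot be told apart in such bulk samples.

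The promoter windows of the 4 inhibitor genes that rose are shown first because these genes make up the called inhibitors. Each runs from 250 bases before to 50 bases after a RefSeq start site, from the RefSeq table of build GRCm38.p6, written 5′ to 3′ on the gene's strand. The coordinates are chr10:86300162-86300461, plus strand for Timp3; chr11:118355362-118355661, minus strand for Timp2; chr4:43875280-43875579, plus strand for Reck; and chr11:75422574-75422873, minus strand for Serpinf1. Capitals mark GGGCGG (the Sp1 box) and TGANTCA (the AP-1 motif), searched on both strands.
Timp3: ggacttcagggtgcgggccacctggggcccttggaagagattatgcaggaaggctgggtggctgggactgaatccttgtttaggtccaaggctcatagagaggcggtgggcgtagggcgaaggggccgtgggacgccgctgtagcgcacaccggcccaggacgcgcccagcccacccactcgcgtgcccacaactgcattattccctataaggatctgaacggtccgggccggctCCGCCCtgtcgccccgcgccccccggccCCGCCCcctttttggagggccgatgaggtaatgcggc
Timp2: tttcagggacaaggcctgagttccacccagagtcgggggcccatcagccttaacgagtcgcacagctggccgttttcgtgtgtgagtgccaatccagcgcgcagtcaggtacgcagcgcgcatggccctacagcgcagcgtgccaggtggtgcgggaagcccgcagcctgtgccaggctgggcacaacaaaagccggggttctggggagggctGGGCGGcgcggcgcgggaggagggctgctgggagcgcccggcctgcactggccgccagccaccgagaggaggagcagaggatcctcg
Reck: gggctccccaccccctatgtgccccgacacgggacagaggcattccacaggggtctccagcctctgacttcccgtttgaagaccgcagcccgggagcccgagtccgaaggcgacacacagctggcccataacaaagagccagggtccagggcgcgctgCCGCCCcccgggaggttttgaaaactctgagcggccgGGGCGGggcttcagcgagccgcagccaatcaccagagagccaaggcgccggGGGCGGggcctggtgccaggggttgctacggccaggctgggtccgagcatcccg
Serpinf1: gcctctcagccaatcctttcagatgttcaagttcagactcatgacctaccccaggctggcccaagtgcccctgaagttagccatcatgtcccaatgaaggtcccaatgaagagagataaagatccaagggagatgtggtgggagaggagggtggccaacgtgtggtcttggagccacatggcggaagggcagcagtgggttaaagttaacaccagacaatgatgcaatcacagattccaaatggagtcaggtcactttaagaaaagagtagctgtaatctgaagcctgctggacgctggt

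GGGCGG was found in 2 places in the Timp3 window, 1 in the Timp2 window, 3 in the Reck window and 0 in the Serpinf1 window, and TGANTCA in none of these 4. For scale, 35.7% of the 32851 promoter windows in the table hold GGGCGG and 7.81% hold TGANTCA. A Sox core motif, ACAAAG or ACAATG on either strand, was found once in the Reck window and once in the Serpinf1 window, and 28.6% of all windows hold one. These matches are descriptions of letters and no binding was measured.

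For comparison, the windows of 2 protease genes that fell, Adam8 (chr7:139992513-139992812, minus strand) and Adamts9 (chr6:92943485-92943784, minus strand), and of Mmp3 (chr9:7445572-7445871, plus strand) and Mmp13 (chr9:7272264-7272563, plus strand), whose levels were higher on array 2 of each line, are shown with the same capitals.
Adam8: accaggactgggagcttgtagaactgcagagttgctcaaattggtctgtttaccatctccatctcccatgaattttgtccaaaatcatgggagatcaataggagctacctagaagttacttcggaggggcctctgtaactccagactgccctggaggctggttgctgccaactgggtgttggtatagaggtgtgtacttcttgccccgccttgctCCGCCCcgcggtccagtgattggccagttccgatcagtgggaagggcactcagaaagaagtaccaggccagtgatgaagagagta
Adamts9: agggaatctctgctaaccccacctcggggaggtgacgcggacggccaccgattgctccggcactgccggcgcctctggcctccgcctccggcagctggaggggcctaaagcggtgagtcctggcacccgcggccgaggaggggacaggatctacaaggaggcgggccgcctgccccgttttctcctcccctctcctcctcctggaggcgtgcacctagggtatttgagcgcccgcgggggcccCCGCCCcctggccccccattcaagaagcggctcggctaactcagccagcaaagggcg
Mmp3: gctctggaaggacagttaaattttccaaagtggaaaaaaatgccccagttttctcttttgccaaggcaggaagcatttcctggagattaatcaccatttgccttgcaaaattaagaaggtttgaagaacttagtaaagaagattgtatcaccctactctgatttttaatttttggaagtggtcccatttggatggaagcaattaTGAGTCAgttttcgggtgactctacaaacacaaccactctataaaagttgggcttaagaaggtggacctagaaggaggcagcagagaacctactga
Mmp13: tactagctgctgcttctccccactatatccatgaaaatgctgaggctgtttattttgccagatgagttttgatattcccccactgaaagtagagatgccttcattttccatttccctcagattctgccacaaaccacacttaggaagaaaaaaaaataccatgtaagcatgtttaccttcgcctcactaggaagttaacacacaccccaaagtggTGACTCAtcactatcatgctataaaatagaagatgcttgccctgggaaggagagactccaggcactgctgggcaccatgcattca

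The Adam8 and Adamts9 windows hold 1 GGGCGG each and no TGANTCA, while the Mmp3 and Mmp13 windows hold 1 TGANTCA each, beginning 46 and 35 bases before the start site, and no GGGCGG. The RefSeq table held a window for 29 of the 44 members. GGGCGG was present in 4 of the 5 rising, 3 of the 3 falling and 10 of the 18 tested members not called that had one, beside the 35.7% of all windows given above. TGANTCA was present in 1 of the 5, 0 of the 3 and 5 of the 18, beside 7.81% of all windows. A member with several windows was counted when any of them held the motif, whereas the percentages are shares of single windows. The windows of Plaur, Mmp10 and Spock1 also hold TGANTCA, as does 1 window each of Adam19 and Mmp12. Plaur was lower on array 2 of each line. The window of Adamts1, which was higher on array 2 of each line, holds no TGANTCA. Any part of these motifs in the gaps between arrays was not tested.

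The largest called rises of the family were those of the metalloprotease inhibitor genes Timp3 and Reck, while that of Timp2 was the smallest on the representative probe sets. Timp3, which codes for an inhibitor that stays bound to the matrix and also acts on ADAM and ADAMTS enzymes, had levels of 10.89 and 10.63 in NSCL61-sox11, against 8.45 and 8.36 in NSCL61. Both NSCL61-sox11 arrays lay above both NSCL61 arrays. The difference was 2.36 (SE 0.11), a 5.12-fold rise with a limma adjusted p of 0.000126. All 4 tested Timp3 probe sets rose, by 2.12 to 2.45. The gene lies within the synapsin gene Syn3 in the mouse annotation, and Syn3 itself had levels of 6.12 and 6.07 in NSCL61-sox11, against 6.09 and 6.07 in NSCL61, a difference of 0.01 (adjusted p = 0.94).

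Reck, which codes for a membrane-anchored inhibitor of several MMPs that also serves in Wnt7 signalling, had levels of 6.13 and 6.43 in NSCL61-sox11, against 4.01 and 4.25 in NSCL61. The groups did not overlap, and the NSCL61 values were below the level filter. The difference of 2.15 (SE 0.15) corresponds to a 4.45-fold rise (limma adjusted p = 0.000426), whose size is uncertain because the NSCL61 level is so low. Reck has 1 probe set, and it passed the filter only through its level in NSCL61-sox11, so that it was not tested without either NSCL61-sox11 array. In the fit of all probe sets its adjusted p was 0.000194.

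Timp2, which codes for an inhibitor that also takes part in the activation of MMP2 by MMP14, had levels of 12.71 and 12.64 in NSCL61-sox11, against 12.27 and 12.20 in NSCL61. On this probe set the rise was 0.44 (SE 0.06, limma adjusted p = 0.0047), or 1.36-fold, and the groups did not overlap. The other 4 tested Timp2 probe sets rose by 0.72 to 0.96, so the representative one gave the smallest difference of the 5. It was no longer called on leaving out NSCL61 array 2 (adjusted p = 0.0652) or when the arrays were scaled to control probe sets, as given below.

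The remaining TIMP genes did not pass. Timp1, an inhibitor gene that growth factors and cytokines induce in many cells, had levels of 11.03 and 10.78 in NSCL61-sox11, against 11.35 and 11.11 in NSCL61, a difference of -0.32 (adjusted p = 0.115). Without NSCL61-sox11 array 1 it was -0.45 and was called lower (limma adjusted p = 0.0286), the only alternative beside the replicate block and the control scalings in which an inhibitor was called lower. Timp4 was close to the level filter, at 5.19 ± 0.08 in NSCL61-sox11 and 5.14 ± 0.11 in NSCL61.

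Of the 3 serpins tested, 1 rose. Serpinf1 codes for pigment epithelium-derived factor, a secreted neurotrophic serpin that does not inhibit proteases, and had levels of 10.94 and 11.32 in NSCL61-sox11, against 10.01 and 10.28 in NSCL61. The groups did not overlap, and the rise was 0.98 (SE 0.15), or 1.98-fold (limma adjusted p = 0.0077). Its second probe set rose by 0.91. Without NSCL61 array 1 the adjusted p was 0.0571. Serpini1, which codes for neuroserpin, an inhibitor of tissue plasminogen activator, averaged 5.93 ± 0.11 in NSCL61-sox11 and 5.75 ± 0.10 in NSCL61 (adjusted p = 0.344). The intracellular serpin gene Serpinb6a averaged 12.30 ± 0.10 in NSCL61-sox11 and 12.37 ± 0.13 in NSCL61 (adjusted p = 0.591). Neither testican gene, Spock1 or Spock2, which code for heparan sulfate proteoglycans of neural tissue, was called, with differences of 0.05 and -0.04; Spock2 averaged 6.38 ± 0.01 in NSCL61-sox11 and 6.43 ± 0.04 in NSCL61.

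**Figure D2:**
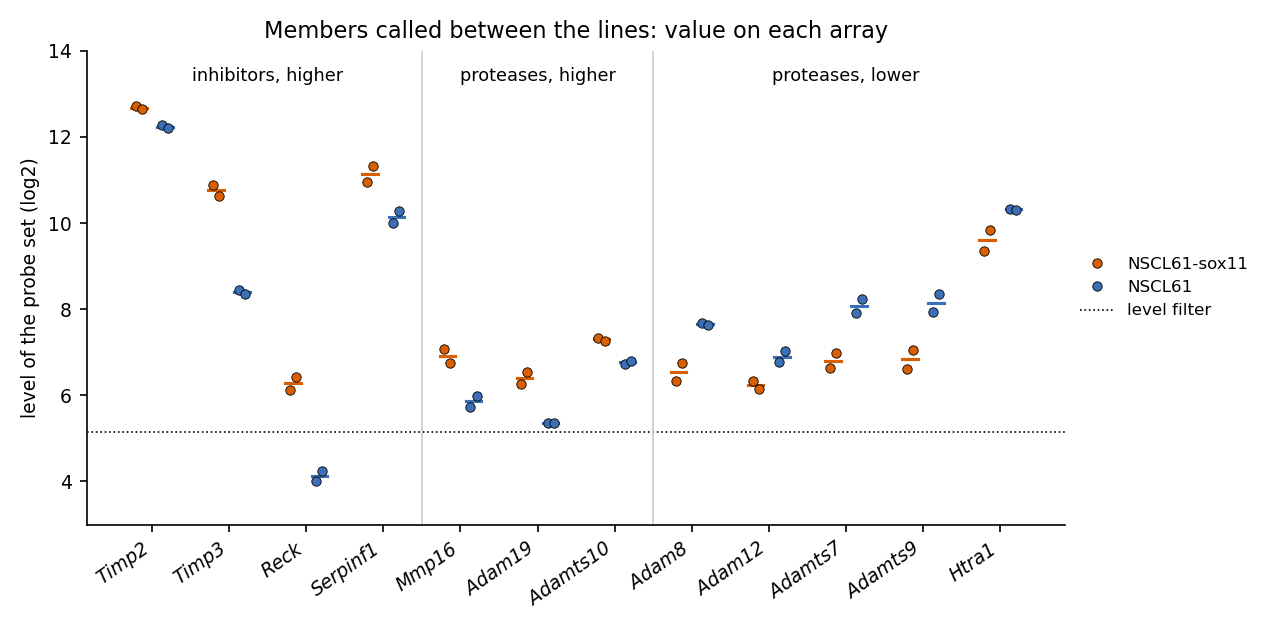
Level (log2, vertical axis) of the representative probe set of each of the 12 called members on each array, with NSCL61-sox11 in orange on the left and NSCL61 in blue on the right of each pair; points are arrays, bars are means, and the dotted line is the level filter of 5.15. The members shown were picked by their call. No pair overlaps, which also holds for some uncalled members such as Mmp9 and Mmp11, and only the NSCL61 arrays of Reck lie under the filter.

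Among the MMP genes, Mmp16 was the only called member of 12 tested. It codes for a membrane-type MMP and had levels of 7.08 and 6.75 in NSCL61-sox11, against 5.73 and 5.99 in NSCL61. The groups did not overlap, and the difference of 1.05 (SE 0.15) corresponds to a 2.07-fold rise (limma adjusted p = 0.00694). A second tested probe set had levels of 7.19 and 6.99 in NSCL61-sox11, against 5.09 and 5.19 in NSCL61, a 3.88-fold rise (adjusted p = 0.000251) whose size is uncertain, since its mean of 5.14 in NSCL61 is too low to pass the filter. Its other 2 probe sets are dimmer and also rose when all probe sets were fitted, by 0.99 and 1.70.

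The other 4 membrane-type MMP genes tested, Mmp14, Mmp17, Mmp23 and Mmp24, were not called. Mmp14, whose product activates the MMP2 precursor, had levels of 9.27 and 9.55 in NSCL61-sox11, against 9.18 and 9.31 in NSCL61, and the lines overlapped. Its 3 probe sets differed by -0.30 to 0.17, none of them called. The differences of Mmp17, Mmp23 and Mmp24 lay between -0.15 and 0.06.

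None of the 7 secreted MMP genes tested was called, and 0 of them changed by 1 or more on the log2 scale. Mmp2, which codes for a gelatinase, had levels of 7.48 and 7.79 in NSCL61-sox11, against 7.02 and 7.58 in NSCL61, a difference of 0.34 (SE 0.20, adjusted p = 0.307) with overlapping lines. Mmp9, the other gelatinase gene, averaged 5.48 ± 0.06 in NSCL61-sox11 and 5.63 ± 0.04 in NSCL61 (adjusted p = 0.385). Mmp11 and Mmp19 differed by 0.19 and 0.12. Mmp12, the macrophage elastase gene, was under the level filter at 2.97 ± 0.05 in NSCL61-sox11, which differed from NSCL61 by -0.03, and was not tested.

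Mmp13 and Mmp3 differed more between arrays of a line than between the lines. Mmp13, a collagenase gene, had levels of 4.79 and 6.79 on arrays 1 and 2 of NSCL61-sox11, against 4.57 and 6.73 on arrays 1 and 2 of NSCL61. In each line array 2 was the higher, by 2.00 in NSCL61-sox11 and 2.16 in NSCL61, while the lines differed by 0.15 (SE 0.83). Of 13084 genes tested, 3 had a larger gap between the NSCL61-sox11 arrays and 0 had a larger gap between the NSCL61 arrays.

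Mmp3, which codes for stromelysin and lies in the same cluster of MMP genes on chromosome 9, had levels of 7.69 and 8.53 on arrays 1 and 2 of NSCL61-sox11, against 7.49 and 8.93 on arrays 1 and 2 of NSCL61. Array 2 was again the higher in each line. Mmp10, a further gene of this cluster, had levels of 6.85 and 6.50 in NSCL61-sox11, against 6.67 and 7.54 in NSCL61, so that array 2 was the higher in NSCL61 alone. Its difference of -0.43 was not called (adjusted p = 0.358), but was with poly-A scaling, hybridisation control scaling and the replicate block (adjusted p = 0.0358, 0.00393 and 0.0178).

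Among ADAM genes, 1 rose and 2 fell of 6 tested. Adam19, which codes for a protease that processes neuregulin precursors, had levels of 6.26 and 6.54 in NSCL61-sox11, against 5.37 and 5.36 in NSCL61. The lines did not overlap, and the rise was 1.04 (SE 0.12), or 2.05-fold (limma adjusted p = 0.0035).

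Adam8, a sheddase gene otherwise known from immune and tumour cells, had levels of 6.34 and 6.75 in NSCL61-sox11, against 7.69 and 7.62 in NSCL61. The lines did not overlap and the difference was -1.11 (SE 0.15), a 2.16-fold fall (limma adjusted p = 0.00518). Adam12, which codes for a relative of ADAM19 known from muscle and bone, had levels of 6.33 and 6.14 in NSCL61-sox11, against 6.76 and 7.04 in NSCL61. It fell 1.59-fold (limma adjusted p = 0.0194) and its second probe set 1.75-fold, but leaving out NSCL61 array 2 ended the call (adjusted p = 0.112). Adam9, a widely expressed sheddase gene, averaged 11.32 ± 0.13 in NSCL61-sox11 and 11.26 ± 0.07 in NSCL61 and was not called. The 4 probe sets of Adam15 differed by -0.37 to -0.15, none called. Adam22 and Adam23, which code for neuronal receptors of LGI proteins without protease activity, lay at or under the level filter, with differences of 0.02 each.

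The ADAMTS genes moved in both directions, with 1 rise and 2 falls among 7 tested. Adamts9, whose product cuts versican and aggrecan, had levels of 6.61 and 7.06 in NSCL61-sox11, against 7.94 and 8.34 in NSCL61. The lines did not overlap, and it fell 2.47-fold (difference -1.31, SE 0.19, limma adjusted p = 0.00717). A second probe set fell by 0.84, a size that is uncertain because its mean of 4.87 in NSCL61-sox11 lies under the level filter. The third differed by -0.16 (limma adjusted p = 0.423).

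Adamts7, which codes for a protease of cartilage oligomeric matrix protein, had levels of 6.64 and 6.98 in NSCL61-sox11, against 7.90 and 8.23 in NSCL61. It fell 2.39-fold (difference -1.26, SE 0.16, limma adjusted p = 0.00454) without overlap. Adamts10, whose product acts on fibrillin microfibrils, had levels of 7.33 and 7.27 in NSCL61-sox11, against 6.73 and 6.81 in NSCL61. It rose 1.45-fold (limma adjusted p = 0.0147) and its second probe set 1.55-fold, but leaving out either NSCL61 array ended the call, with an adjusted p of 0.105 for array 1 and 0.0719 for array 2.

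The largest differences among ADAMTS genes belonged to a pair that did not pass. Adamts1 and Adamts5 are neighbours on chromosome 16 and code for proteases that cut aggrecan and versican. Adamts1 had levels of 7.12 and 9.08 in NSCL61-sox11, against 5.72 and 6.26 in NSCL61. The lines did not overlap, but the NSCL61-sox11 arrays lay 1.96 apart, and the difference of 2.11 (SE 0.58) had an adjusted p of 0.0539. Without NSCL61-sox11 array 1 it was 3.09 (adjusted p = 0.000189), and without NSCL61-sox11 array 2 it was 1.13 (adjusted p = 0.0122). Over all 14 alternatives of the analysis the adjusted p ran from 4.33e-23 to 0.231.

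Adamts5 had levels of 5.50 and 6.99 in NSCL61-sox11, against 4.44 and 5.37 in NSCL61. On this representative probe set array 2 was the higher in each line, and the difference of 1.34 (SE 0.50) was not called (limma adjusted p = 0.123). Its mean in NSCL61 of 4.90 lies under the level filter. Without NSCL61-sox11 array 1 the difference was 2.08 (adjusted p = 0.00646), without NSCL61 array 1 or 2 it was not called (adjusted p = 0.453 and 0.141), and without NSCL61-sox11 array 2 the probe set fell below the filter and was not tested. Of the 8 fibroblast and meningeal markers tested, 5 stood higher on NSCL61-sox11 array 2 than on array 1, by 0.32 (Foxc1) to 2.32 (Postn). Postn, which codes for periostin, had 8.27 and 10.59 on arrays 1 and 2. Lower on array 2 were Dcn, the decorin gene, at 7.58 and 6.89, and also Twist1 (-0.13) and Col1a2 (-0.07). Whether these gaps go with those of Adamts1 and Adamts5 was not tested. Adamts4, an aggrecanase gene, averaged 7.06 ± 0.24 in NSCL61-sox11 and 7.24 ± 0.11 in NSCL61 and was not called, nor was Adamts6, with a difference of 0.42. Adamts12 lay under the level filter at 5.08 ± 0.22 in NSCL61-sox11 and 4.34 ± 0.06 in NSCL61; in the fit of all probe sets it was called higher (difference 0.74, limma adjusted p = 0.0147).

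**Figure D3:**
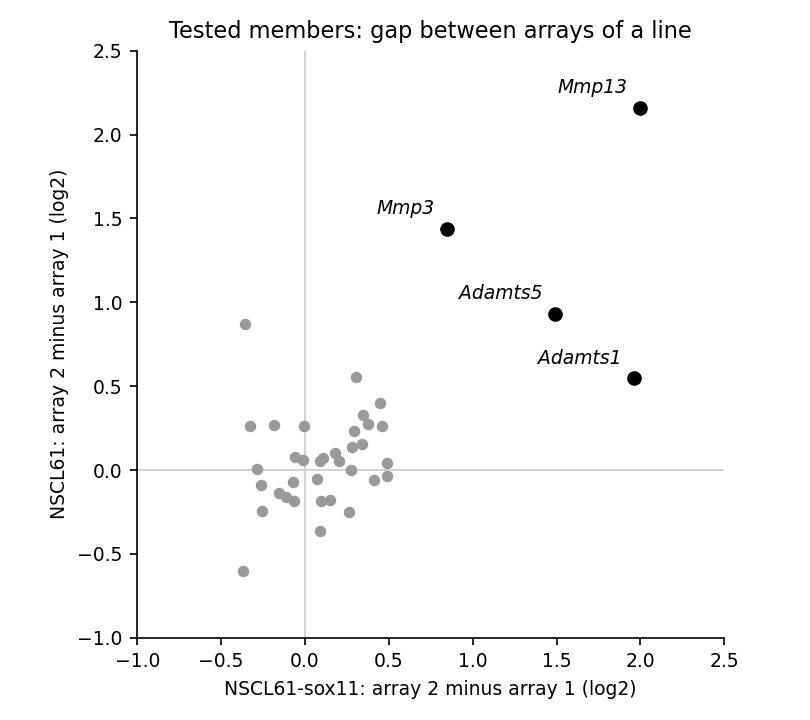
Array 2 minus array 1 (log2) within NSCL61-sox11 (horizontal axis) and within NSCL61 (vertical axis) for the 39 tested members, 1 point each. Each point is the representative probe set. Mmp13 (2.00 and 2.16), Mmp3 (0.85 and 1.44), Adamts5 (1.49 and 0.93) and Adamts1 (1.96 and 0.55) stand apart from the other members at the upper right.

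Of the tested serine protease members other than the plasminogen activators, Htra1 fell and Htra3 did not pass. Htra1, which codes for a secreted serine protease that acts on matrix proteins and TGF-beta family signalling, had levels of 9.35 and 9.84 in NSCL61-sox11, against 10.34 and 10.30 in NSCL61. It fell 1.65-fold (difference -0.72, SE 0.16, limma adjusted p = 0.0261) without overlap, and its second probe set fell by 0.76. Leaving out NSCL61 array 1 or 2 ended the call, with adjusted p-values of 0.14 and 0.126, and leaving out NSCL61-sox11 array 1 or 2 moved the difference to -0.48 or -0.97, both called. Htra3, a related protease gene, averaged 6.27 ± 0.05 in NSCL61-sox11 and 6.37 ± 0.13 in NSCL61 and was not called.

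Of the plasminogen activation genes none was called, although other settings called Plat and Plaur lower. Plat, which codes for tissue plasminogen activator, had levels of 9.70 and 10.16 in NSCL61-sox11, against 10.32 and 10.59 in NSCL61, a difference of -0.53 (SE 0.16, adjusted p = 0.0778) without overlap. Without NSCL61-sox11 array 2 its difference was -0.76 (adjusted p = 0.00513), and with poly-A scaling, hybridisation control scaling and the replicate block the adjusted p was 0.00432, 0.000253 and 4.45e-07. Plaur, the gene of the urokinase receptor, averaged 9.49 ± 0.26 in NSCL61-sox11 and 9.81 ± 0.42 in NSCL61 (adjusted p = 0.355); with the same 3 settings its adjusted p was 0.0422, 0.0144 and 0.00167. Plau, the urokinase gene, averaged 4.86 ± 0.17 in NSCL61-sox11 and 4.96 ± 0.03 in NSCL61, and lay under the level filter. So did Fap, a fibroblast surface peptidase gene, at 3.90 ± 0.55 in NSCL61-sox11 and 3.96 ± 0.13 in NSCL61.

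Different tested probe sets of a gene gave the same direction for the called members. A further Timp2 probe set, under the level filter and not tested, differed by -0.07. The 44 members have 91 probe sets, of which 66 were tested, 17 rose and 8 fell. That is to be read beside 8.99% and 8.32% of all 27022 probe sets. Probe sets of a gene are not independent, and of the 17 that rose 5 belong to Timp2 and 4 to Timp3. Of 8 called members with more than 1 tested probe set, all but Adamts9 had every one of them called, and 0 members had probe sets called in opposite directions.

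**Figure D4:**
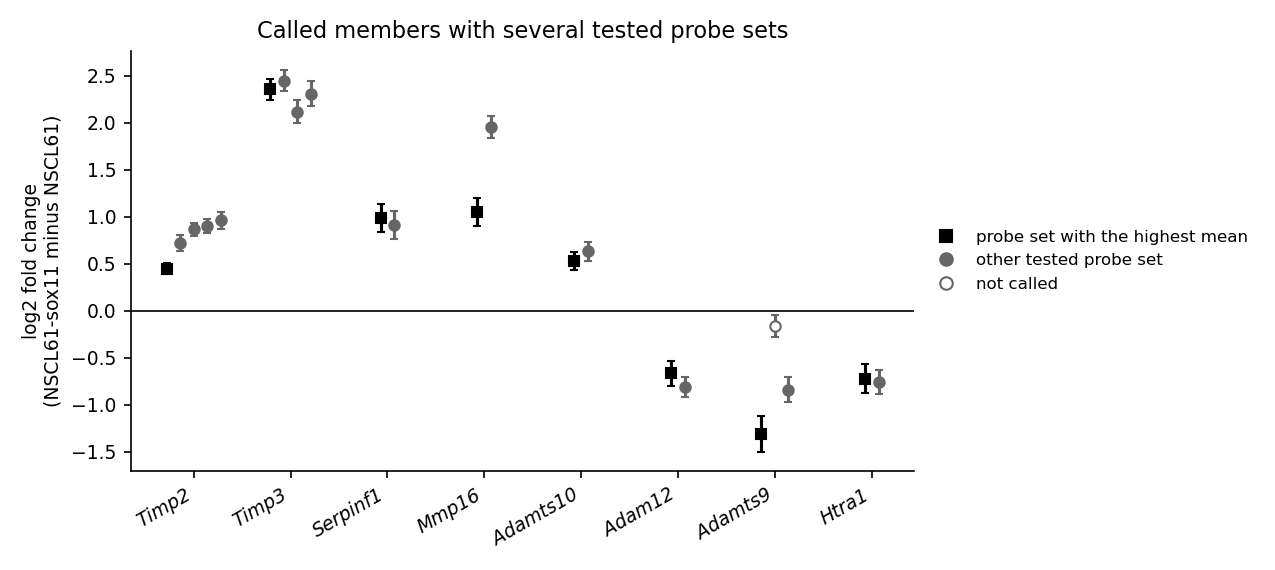
Log2 fold change (NSCL61-sox11 minus NSCL61, vertical axis) with moderated SE for every tested probe set of the 8 called members that have several; squares are the probe sets with the highest mean and the open circle was not called. Timp3 probe sets lie between 2.12 and 2.45, Timp2 between 0.44 and 0.96, and 1 Adamts9 probe set lies at -0.16.

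The calls were also compared under other scalings, because a shift of all arrays of a line can turn small differences. Scaling to the poly-A or hybridisation controls lowered every difference, with shifts of -0.36 and -0.22 that are smaller than any called rise, so that no called member could change sign. With poly-A scaling Timp3, Reck, Adam8, Adam12, Adamts7, Adamts9 and Htra1 kept their calls, whereas Mmp16, Adam19, Serpinf1, Adamts10 and Timp2 did not, at limma adjusted p-values of 0.0639, 0.056, 0.0576, 0.603 and 0.765 in this order. With hybridisation control scaling the calls of Adamts10 (adjusted p = 0.2) and Timp2 (adjusted p = 0.273) were lost. Both control scalings, and the replicate block, also added calls: Adamts1 and Adamts5 were then called higher, and Mmp10, Plat, Plaur and Timp1 lower. The replicate block alone further called Mmp2 and Adamts6 higher and Adam15 lower. Timp3, Adam8, Adamts7 and Adamts9 were called under all 14 alternatives. Reck was tested under 11 of them and called in each, but except with no filter it is tested only where its NSCL61-sox11 level lifts it over that level, so that this count does not speak for its stability.

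Further proteases outside the 47 genes were read from a list of 50. Of 24 tested, 1 rose, 6 fell and 17 did not pass, with a median of -0.06, beside 10.0% of all genes tested that rose and 9.19% that fell. Prss23, a secreted serine protease gene, rose 2.99-fold to levels of 10.00 and 10.39 in NSCL61-sox11, against 8.55 and 8.69 in NSCL61 (limma adjusted p = 0.00117). Bmp1, which codes for the enzyme that removes the C-terminal propeptide of collagen precursors, fell 2.59-fold, with levels of 8.64 and 8.91 in NSCL61-sox11, against 10.04 and 10.26 in NSCL61 (limma adjusted p = 0.00124). The elastase gene Cela1 fell 1.88-fold and the lysosomal cathepsin gene Ctsz 1.64-fold. The sheddase genes Adam10 and Adam17 and the proprotein convertase gene Furin, whose product activates many of these enzymes, did not pass, with differences of 0.04, -0.24 and 0.00.

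Among 40 further inhibitors and modulators, 26 were tested, and 8 rose, 6 fell and 12 did not pass, with a median of -0.01, beside the same shares of all genes. Adamtsl3, which codes for a secreted ADAMTS-like protein without protease activity, rose 5.65-fold, with levels of 8.73 and 9.07 in NSCL61-sox11, against 6.47 and 6.34 in NSCL61 (limma adjusted p = 0.000193). Serpinb9, which codes for a serpin that inhibits granzyme B, rose 4.38-fold (limma adjusted p = 0.000404). The cystatin gene Cst6 fell 3.66-fold and Thbs2, which codes for a thrombospondin involved in MMP2 clearance, 2.68-fold.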

How the data were processed

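The deposited table holds a processed value for each of 45101 probe sets on each of 4 arrays, with 1 array to a sample. According to the labels' descriptions and protocols, biotin-labelled RNA made by in vitro transcription from total RNA was read on Affymetrix M430_2 arrays. The values were read as log2 from their range, since the deposited table names no base; the authors' summary and normalization methods are not given in the sources used here. Trimmed means of the arrays were 6.21 to 6.22, so the deposited log2 values were used unscaled. Genes were named through GEO's platform annotation, and 64 control probe sets were left out. No pair of arrays held identical values.

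NSCL61-sox11 was compared with NSCL61 on the brightest 60% of probe sets by mean, using limma 3.58.1 under R 4.3.3 (lmFit and a two-sided moderated test from eBayes with trend), with Benjamini-Hochberg adjustment over all 27022. Residual degrees of freedom were 2 before and 6.36 after moderation. Errors beside levels are SD, those beside differences moderated SE. Scripts were tested on simulated data. The members and lists were chosen with earlier results of these data known. All members are accounted for; called members are given with values, as are up to 4 called genes with the largest change from each further list, or its brightest gene where none was called. The genes Adamts1, Adamts5, Mmp13, Mmp10, Mmp2, Dcn, Foxc1, Col3a1, Twist1, Nes, Syn3, Adam10, Adam17, Furin and Vcan, the markers named as below the filter, and the promoter windows were picked after values were seen. Alternatives covered scaling, level filter, variance model, probe set choice, a replicate block and leaving out each array. Figures were drawn with matplotlib 3.10.9.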

Additional observations from a re-analysis of the deposited data

How the results depend on the processing

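The counts of members were 7 higher and 5 lower, and quantile normalization, median centring, no intensity trend, the mean of all probe sets and leaving out _x_at probe sets gave the same counts. Without a level filter 8 were higher and 5 lower. Scaling to poly-A controls gave 4 higher and 9 lower members, with medians of -0.32 for proteases and -0.24 for inhibitors; scaling to hybridisation controls gave 7 and 9, with medians of -0.18 and -0.10. Under these scalings the balance over all genes, 1308 higher and 1202 lower as reported, became 395 and 1559, and 702 and 2336. Every difference moved by 1 amount within a scaling, and the SEs changed as well, since each array was shifted by its own amount. With poly-A scaling the SE of Mmp16 went from 0.15 to 0.27 and that of Mmp13 from 0.83 to 0.25. The median over all genes tested was then -0.38 with poly-A scaling and -0.24 with hybridisation control scaling. With the brightest 40% of probe sets, where 22 members were tested, the medians were -0.20 for proteases and 0.44 for inhibitors. Leaving out 1 array in turn gave 1635 to 4796 probe sets against 4678, 906 to 2620 genes against 2510, 5 to 8 members higher, 3 to 6 lower, and medians of -0.073 to 0.12 for proteases and 0.047 to 0.25 for inhibitors; the lone array of a line is then assumed to vary like the others. The low counts of genes came without NSCL61 array 1 (906) and NSCL61 array 2 (943). The signs of the 2 medians were thus not stable. With the replicate block 9227 probe sets, 4830 genes, 11 members higher and 10 lower were called, and 0 of the 12 member calls were lost. Same-numbered arrays deviated together (r = 0.41 over the tested probe sets), but the labels do not say that the numbers pair the arrays. Where no cause is given it was not tested. The number of arrays limits the precision, and levels near 5.15 limit fold sizes.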

Other observations

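Genes of substrates and partners of these enzymes also differed between the lines. Of 24 listed, 18 were tested, and 4 rose, 3 fell and 11 did not pass, with a median of 0.01, beside 10.0% of all genes that rose and 9.19% that fell. The fibronectin gene Fn1 had levels of 11.87 and 12.04 in NSCL61-sox11, against 10.31 and 10.64 in NSCL61, a 2.79-fold rise (limma adjusted p = 0.000862). Igfbp3, which codes for a growth factor binding protein that several of these proteases cut, had levels of 10.39 and 10.95 in NSCL61-sox11, against 12.30 and 12.53 in NSCL61, a 3.35-fold fall (limma adjusted p = 0.00195). The collagen gene Col1a1 had levels of 8.51 and 9.61 in NSCL61-sox11, against 5.84 and 6.31 in NSCL61. Tgfb2, which codes for a latent ligand held in the matrix, had 8.02 and 8.75 in NSCL61-sox11, against 5.96 and 6.52 in NSCL61. Of the proteoglycans that ADAMTS enzymes cut, versican (Vcan) fell by 1.19 (limma adjusted p = 0.00108), whereas Bcan and Acan did not pass, with differences of -0.02 and 0.03.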
